A study of Mus musculus with 8 samples.

Results

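The genes described here encode the class I histone deacetylases (HDACs), the enzymes that Romidepsin inhibits, together with subunits of the corepressor complexes built around them. The 9 genes were taken by name from a fixed list, chosen with earlier results of these data known. They were looked up by Ensembl identifier among the 26930 genes of the count table. They comprise 4 enzyme genes (Hdac1, Hdac2, Hdac3 and Hdac8) and 5 subunit genes (Sin3a, Ncor1, Rcor1, Mta2 and Chd4). All 9 were in the table and all 9 had enough counts to be tested. Poly(A) RNA was sequenced from cultured mouse MDSCs (suppressor cells of the myeloid lineage, known for damping T cell responses). Bone marrow from the femurs of C57BL/6 mice had been grown with 40 ng/ml each of GM-CSF and IL-6, and medium conditioned by the TRAMP-C1 prostate tumour line was given on day 4. These conditions were common to all 8 libraries, and the labels call the cells senescent-like. The 4 treated libraries came from cells given 0.5 µM Romidepsin for 6 h, and the 4 untreated libraries from cells without it. No label names separate animals or cultures, so the p-values below reflect the spread among the 8 samples, and that spread may be technical.

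Class I HDACs remove acetyl groups from histone tails and from other proteins, and histone deacetylation is generally tied to gene repression. HDAC1 and HDAC2 are close relatives that work in the SIN3, NuRD, CoREST and MiDAC complexes, HDAC3 works in NCoR complexes, and HDAC8 acts without such a complex and deacetylates the cohesin subunit SMC3. Romidepsin is a prodrug whose reduced thiol binds the zinc ion in the catalytic pocket of these enzymes. The measurements below concern the RNA of the targets and their partners, not enzyme activity or protein.

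Total counts ranged from 13227311 to 15396077 in Romidepsin libraries and from 12996892 to 23176949 in untreated ones. Romidepsin replicate 3 stood apart from its group: its mean correlation of log2 CPM (counts scaled to library size) was 0.910 with the other Romidepsin libraries and 0.934 with the untreated ones. The summed level of 10 neutrophil markers was 213 to 3463 CPM in Romidepsin cells and 2813 to 9132 CPM in untreated cells, and that of 8 monocyte and macrophage markers 14249 to 33385 and 36282 to 49316 CPM. Over lists for myeloid and other cell types, 53 markers were tested. By edgeR, 15 were called lower and 0 higher, where 16.2% of all tested genes were lower and 20.3% higher. Among the 15 were 3 neutrophil, 1 monocyte, 3 of 5 common myeloid and 4 of 6 B cell genes. Common myeloid markers summed to 416 to 1790 CPM in Romidepsin cells and 2148 to 2533 CPM in untreated cells. Megakaryocyte markers summed to 352 to 811 CPM in Romidepsin cells and 352 to 863 CPM in untreated cells. B cell markers summed to 27.0 to 434 CPM in Romidepsin cells and 264 to 919 CPM in untreated cells. The myeloid markers Lyz2 (12152 to 26056 CPM in Romidepsin cells, 27260 to 36930 CPM in untreated cells) and Itgam (168 to 711 CPM, against 406 to 901 CPM) were present in every library. The 5 erythroid markers measured and the NK cell genes Ncr1, Klrb1c and Eomes lay under 1 CPM in every library. Klrk1, also on the NK cell list, was at 0.0573 to 1.92 CPM in Romidepsin cells and 3.86 to 9.32 CPM in untreated cells. In such bulk samples, fewer cells of a type and less RNA per cell cannot be told apart, and the part of cell composition in the results below was not tested. Mitochondrial transcripts made up 1.59 to 3.05% of counts in Romidepsin libraries and 0.934 to 1.89% in untreated ones.

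After Romidepsin, Hdac1 rose 1.95-fold and Hdac3 1.90-fold, Mta2 fell to 0.628 of its untreated level, and the other 6 genes did not pass. Levels are CPM after TMM scaling (trimmed mean of M-values). Fold changes are log2 ratios, Romidepsin over untreated, given with the standard error (SE), and a gene was called at a Benjamini-Hochberg adjusted p under 0.05 in edgeR's quasi-likelihood test over all 12852 tested genes. By this rule 3 of 9 genes were called, where 36.5% of all tested genes were called (20.3% higher, 16.2% lower), so the share among these genes lies near the background. The same 3 genes had no overlap between the groups, as had 35.2% of all genes. The counts depended on single libraries and on the scaling. Without Romidepsin replicate 3, 4 members rose and 2 fell (48.2% of all genes called), without both libraries of number 3, 2 rose and 2 fell (39.8%, 20.6% higher), and with libraries of the same number paired by a replicate block, 2 rose and 2 fell (41.9%, 21.2% higher and 20.8% lower). Without untreated replicate 4, 4 rose and 1 fell (33.1% of all genes called, 19.5% higher and 13.6% lower), and without untreated replicate 1, 3 rose and 1 fell (31.6%, 18.2% higher and 13.4% lower). Scaling to library size alone gave 4 higher and 0 lower members, beside 40.8% of all genes called and 30.2% called higher. Scaling to 20 housekeeping genes gave 5 higher and 0 lower, beside 44.1% called and 5.6% called lower. These scalings moved the median fold change of all genes by 0.30 and 0.70, and the higher share of all calls was 73.9% and 87.3% with them, against 55.7% with TMM. Fold changes are therefore relative to the TMM scale.

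**Figure D1:**
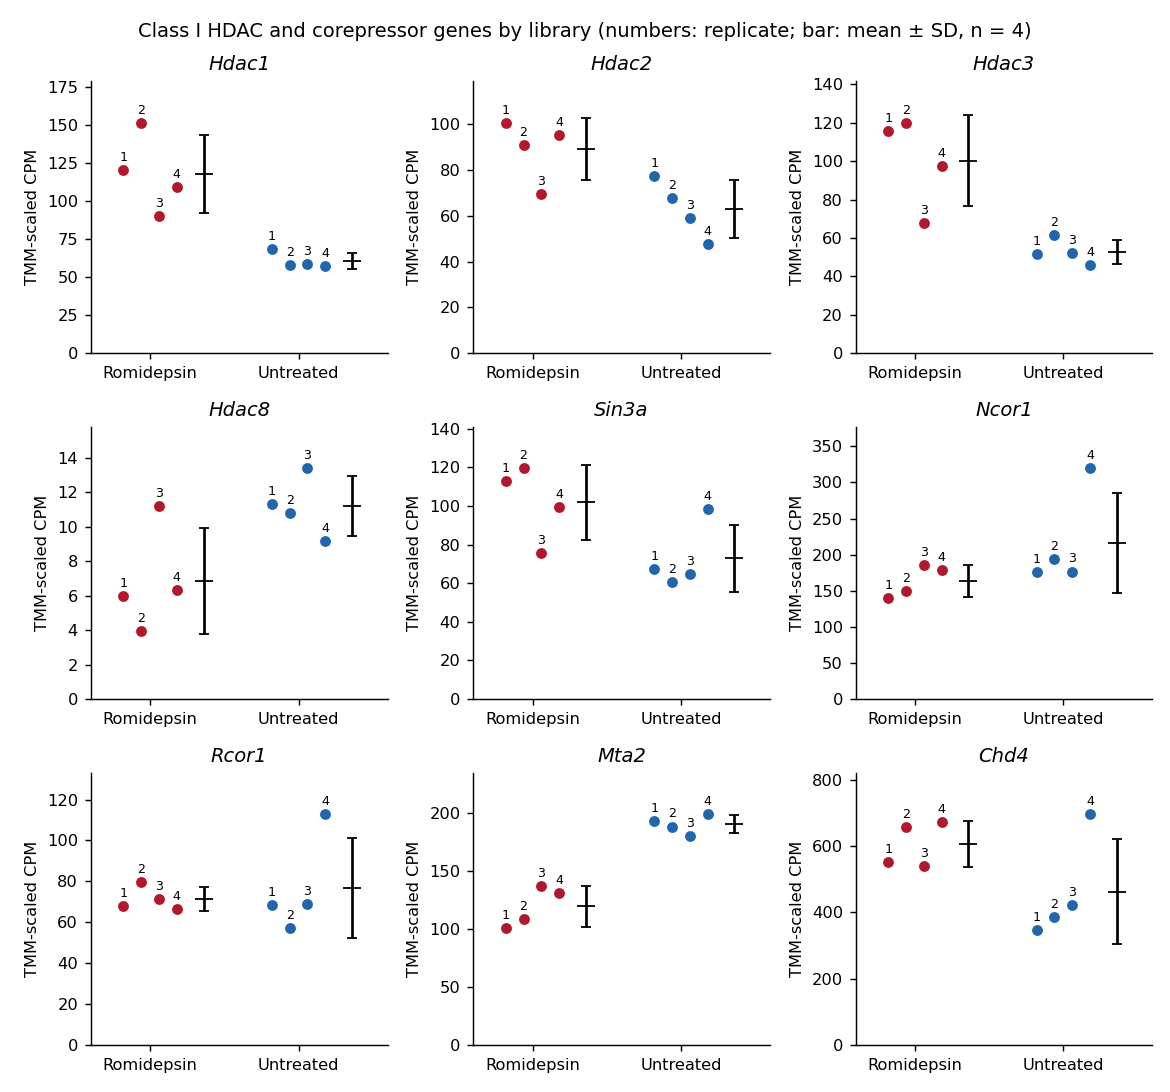
TMM-scaled CPM of the 9 genes in each library, with Romidepsin libraries in red on the left and untreated libraries in blue on the right of each panel, labelled by replicate number, and the mean ± SD (n = 4 each). Hdac1, Hdac3 and Mta2 show no overlap between groups, and untreated replicate 4 is the highest untreated library for Sin3a, Ncor1, Rcor1, Mta2 and Chd4.

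Hdac1 encodes one of the catalytic subunits shared by SIN3, NuRD, CoREST and MiDAC. It lies on chromosome 4, 129516104 to 129542713, minus strand (GRCm38, GENCODE M21). Its level was 120.2, 151, 90.4 and 109 CPM in Romidepsin replicates 1 to 4, against 68.4, 58.0, 58.3 and 57.6 CPM in untreated replicates 1 to 4. Every Romidepsin library lay above every untreated one, with Romidepsin replicate 3 the lowest of its group. Hdac1 rose by a log2 fold change of 0.96 ± 0.18 (SE, n = 4 each; edgeR adjusted p = 0.00512), a 1.95-fold difference. It was called in all 20 alternative fits (adjusted p 5.3e-05 to 0.0217) and was higher in 4 of 4 same-numbered pairs.

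The Hdac1 count is uncertain in one respect that its sequence shows. A processed copy, Gm10093 on chromosome 17, matches the Hdac1 transcript over 1444 bases with 9 differences (99.4% identity), so that 1005 of the 1964 windows of 75 bases in the 2038-base Hdac1 transcript occur unchanged in the copy. A stretch with 6 of these differences is shown because, within the matched part (transcript positions 85 to 1528), only such bases tell the genes apart. Counting both these bases and the ends of the transcript beyond the match, 959 of the 1964 windows do not occur in the copy. Both lines run 5′ to 3′ over positions 482 to 571 of the Hdac1 transcript (Hdac1-201), which lie in its reading frame (in Gm10093, chr17:78491979-78492068, plus strand, GRCm38), and capitals mark the 6 bases that differ.
Hdac1: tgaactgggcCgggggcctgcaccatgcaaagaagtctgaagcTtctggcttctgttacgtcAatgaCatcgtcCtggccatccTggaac
Gm10093: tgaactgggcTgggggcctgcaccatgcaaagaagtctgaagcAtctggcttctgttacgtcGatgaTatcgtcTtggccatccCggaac
Counted from the first base of the transcript, the differences are C492T, T525A, A544G, C549T, C556T and T566C, with the Hdac1 base first. Gm10093 had 74 counts over all libraries and Hdac1 11016. Its level was 0.687, 1.08, 0.595 and 0.646 CPM in Romidepsin replicates 1 to 4 and 0.399, 0.495, 0.410 and 0.483 CPM in untreated ones, too low to be tested, although each Romidepsin library again lay above each untreated one. How reads that match both loci were counted is not given in the sources used here. Less similar copies of Hdac1 were AC125456.1 (96.3% identity over 1450 bases, 6 counts) and Gm4864 (94.6% over 1469 bases, 1 count). Gm21834 (90.1% over 453 bases) was not in the count table. The windows of 75 bases were compared with Gm10093 alone.

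Hdac3 encodes the catalytic subunit of NCoR complexes (chromosome 18, 37935844 to 37955016, minus strand). It was at 116, 120.2, 67.7 and 97.6 CPM in Romidepsin replicates 1 to 4, and at 51.6, 61.4, 52.0 and 46.1 CPM in untreated replicates 1 to 4. The groups did not overlap, and Romidepsin replicate 3 lay closest to the untreated libraries. Hdac3 rose by 0.93 ± 0.20 on the log2 scale (SE, n = 4 each; edgeR adjusted p = 0.00898), 1.90-fold, and was called in all 20 alternatives (adjusted p up to 0.0305). Its log2 difference was 1.16, 0.97, 0.38 and 1.08 in the 4 same-numbered pairs.

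Hdac2 encodes the close relative of HDAC1 found in the same complexes (chromosome 10, 36974544 to 37001889, plus strand). Its level was 101, 91.0, 69.6 and 95.3 CPM in Romidepsin replicates 1 to 4, against 77.2, 67.9, 59.0 and 47.8 CPM in untreated replicates 1 to 4. The groups overlapped, since untreated replicate 1 exceeded Romidepsin replicate 3. The log2 fold change of 0.50 ± 0.19 did not pass (SE, n = 4 each; edgeR adjusted p = 0.0632), although Hdac2 was higher in 4 of 4 pairs. It passed without Romidepsin replicate 3 (adjusted p = 0.0294), without untreated replicate 1 (0.0473), and with library size (0.0231) or housekeeping scaling (0.0109), in 4 of 20 alternatives.

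Hdac8 encodes the enzyme that acts outside these complexes (chromosome X, 102284639 to 102505359, minus strand), and it was by far the least expressed of the 9. It was at 5.95, 3.93, 11.2 and 6.33 CPM in Romidepsin replicates 1 to 4 and at 11.3, 10.8, 13.4 and 9.17 CPM in untreated replicates 1 to 4. Romidepsin replicate 3 lay among the untreated libraries and the other 3 Romidepsin libraries below all of them. These levels rest on 62 to 190 counts per library. The log2 fold change of −0.71 ± 0.32 did not pass (SE, n = 4 each; edgeR adjusted p = 0.110). With the replicate block it was −0.79 (adjusted p = 0.0490), and without Romidepsin replicate 3 it was −1.08 (adjusted p = 0.0105). Without both libraries of number 3 it was −0.97 (adjusted p = 0.0350). Under housekeeping scaling it was −0.09.

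To compare levels between genes, scaled CPM was divided by the length of all annotated exons of a gene. Per kilobase, Hdac1 made up 42.5 ± 2.93% of the summed class I HDAC level in Romidepsin cells and 37.6 ± 2.91% in untreated cells (SD, n = 4 each). The share of Hdac2 was 25.0 ± 2.46% in Romidepsin cells and 29.7 ± 2.87% in untreated cells, and that of Hdac3 30.5 ± 2.22% and 27.8 ± 2.57%, with overlapping groups for all 3 genes. Hdac8 held 1.93 ± 1.29% in Romidepsin cells and 4.93 ± 0.749% in untreated cells, the only one of the 4 shares whose groups did not overlap. In Romidepsin replicates 1 to 4 the Hdac8 share was 1.41, 0.857, 3.80 and 1.67%, and in untreated replicates 1 to 4 it was 4.49, 4.52, 6.05 and 4.66%. Such shares do not depend on library scaling, but they do depend on the gene length used. A share also falls when other genes of the sum rise, as Hdac1 and Hdac3 did. The level of Hdac8 itself overlapped between the groups and did not pass (edgeR adjusted p = 0.110). The effect of reads shared between Hdac1 and its copy was not tested.

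Sin3a encodes the scaffold of the SIN3 complex, on which HDAC1 or HDAC2 sits (chromosome 9, 57072040 to 57128366, plus strand). It was at 113, 119, 75.9 and 99.3 CPM in Romidepsin replicates 1 to 4, against 67.2, 60.8, 65.0 and 98.2 CPM in untreated replicates 1 to 4. Untreated replicate 4 lay within the Romidepsin range and the other 3 untreated libraries below it. The log2 fold change was 0.48 ± 0.21 (SE, n = 4 each; edgeR adjusted p = 0.0940), which did not pass. Without untreated replicate 4 it was 0.65 (adjusted p = 0.0281), and without Romidepsin replicate 3 it was 0.57 (adjusted p = 0.0394).

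Ncor1 encodes the nuclear receptor corepressor that binds and activates HDAC3 (chromosome 11, 62316426 to 62458541, minus strand). Its level was 141, 149, 186 and 178 CPM in Romidepsin replicates 1 to 4 and 176, 194, 177 and 319 CPM in untreated replicates 1 to 4. Apart from untreated replicate 4, all libraries of both groups lay between 141 and 194 CPM. The log2 fold change of −0.41 ± 0.23 did not pass (SE, n = 4 each; edgeR adjusted p = 0.187), was −0.17 without untreated replicate 4, and turned to 0.21 under housekeeping scaling. Ncor1 was called in none of the 20 alternatives, the lowest adjusted p being 0.0572. Its exons share 82 bases with Pigl on the opposite strand, a gene with 1053 counts against 23717 for Ncor1.

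Rcor1 encodes CoREST, which bridges HDAC1 or HDAC2 to the histone demethylase LSD1 (chromosome 12, 111039351 to 111115901, plus strand). It was at 68.0, 79.8, 71.2 and 66.5 CPM in Romidepsin replicates 1 to 4, and at 68.2, 57.4, 69.0 and 113 CPM in untreated replicates 1 to 4. The Romidepsin libraries lay inside the untreated range. The log2 fold change was −0.11 ± 0.21 (SE, n = 4 each; edgeR adjusted p = 0.707), and 0.12 without untreated replicate 4. Its limits at 2 SE on either side were −0.54 and 0.32, so a change within these limits could not be told from none.

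Mta2 encodes a NuRD subunit that holds HDAC1 or HDAC2 in the complex (chromosome 19, 8941875 to 8952303, plus strand). It was at 101, 109, 137 and 131 CPM in Romidepsin replicates 1 to 4, against 193, 188, 180.3 and 199 CPM in untreated replicates 1 to 4. All Romidepsin libraries lay below all untreated ones, with Romidepsin replicate 3 the nearest. Mta2 fell by 0.67 on the log2 scale (SE 0.16, n = 4 each; edgeR adjusted p = 0.0116), and it was lower in 4 of 4 pairs. The call held in 18 of 20 alternatives. The exceptions were library size scaling, where the log2 fold change was −0.39 (adjusted p = 0.0576), and housekeeping scaling, where it was −0.01 (adjusted p = 0.967).

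Chd4 encodes the ATPase that gives NuRD its nucleosome-remodelling activity (chromosome 6, 125095981 to 125130591, plus strand). Its level was 551, 659, 540.4 and 672 CPM in Romidepsin replicates 1 to 4, and 346, 387, 424 and 697 CPM in untreated replicates 1 to 4. Untreated replicate 4 was the highest of all 8 libraries, and the other 3 untreated libraries were the lowest. The log2 fold change was 0.39 ± 0.26 (SE, n = 4 each; edgeR adjusted p = 0.253), and 0.64 without untreated replicate 4 (adjusted p = 0.0358).

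Untreated replicate 4, the deepest library, was the highest untreated one for Sin3a, Ncor1, Rcor1, Mta2 and Chd4 and the lowest for Hdac1, Hdac2, Hdac3 and Hdac8. Levels in this library also varied with transcript length. Tested genes were divided into 5 equal classes by their longest annotated transcript, and for each library the median log2 level over the other 3 libraries of its group was taken. In untreated replicate 4 it was −0.50 in the shortest class, up to 1.847 kb, and 0.48 in the longest, from 5.105 kb. In the other untreated libraries it was 0.04 to 0.27 in the shortest class and −0.20 to −0.10 in the longest, and Romidepsin replicate 2 had the widest range of its group, −0.24 to 0.16. Sin3a, Ncor1, Rcor1 and Chd4 belong to the longest class, Hdac2, Hdac3 and Mta2 to the third, and Hdac1 and Hdac8 to the second. In the third class, whose median in untreated replicate 4 was 0.03, this library was the highest untreated one for Mta2 and the lowest for Hdac2 and Hdac3. The part of transcript length in these values was not tested. With a per-library trend on transcript length taken out, an alternative chosen after seeing the data, Sin3a was at 0.42 (adjusted p = 0.0621), Ncor1 at −0.42 (0.0572), Rcor1 at −0.15 (0.401) and Chd4 at 0.37 (0.121). Hdac1 (0.98), Hdac3 (0.86) and Mta2 (−0.73) were still the members called in that fit.

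**Figure D2:**
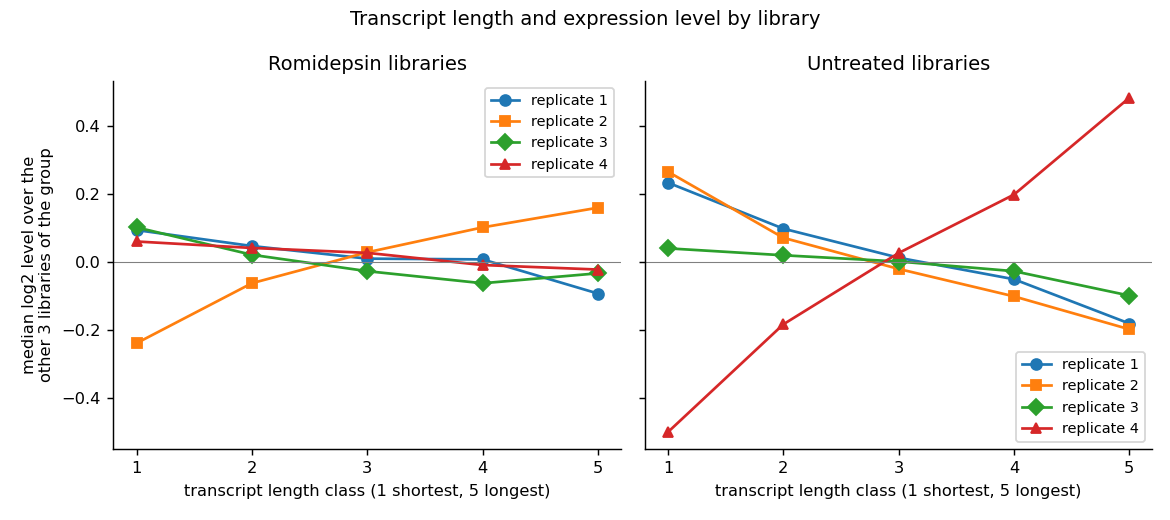
Median log2 level of the genes in 5 classes of transcript length, each library against the other 3 of its group, with Romidepsin libraries on the left and untreated ones on the right. Untreated replicate 4 runs from −0.50 in the shortest class to 0.48 in the longest.

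**Figure D3:**
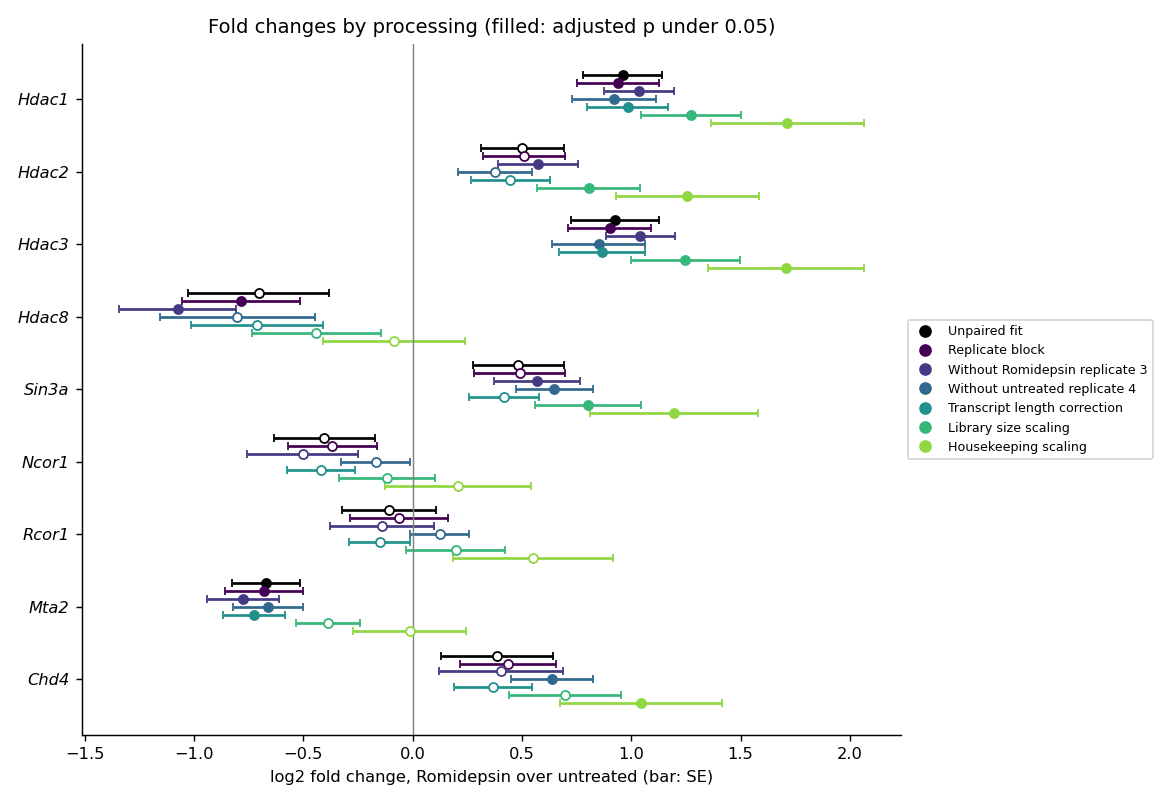
Log2 fold change of each gene, Romidepsin over untreated, with its SE, in the unpaired fit and 6 alternatives, where filled points have an adjusted p under 0.05. Hdac1 and Hdac3 are filled throughout, Mta2 is open with library size and housekeeping scaling, and Ncor1 and Rcor1 are open throughout.

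Per kilobase of exon, Chd4 had the highest mean of the 9 genes in both groups, at 75.5 ± 8.66 in Romidepsin cells and 57.8 ± 19.8 in untreated cells (scaled CPM per kb, SD, n = 4 each). Mta2 stood at 29.2 ± 4.24 in Romidepsin cells and 46.4 ± 1.90 in untreated cells. In untreated cells Chd4 and Mta2 overlapped: Chd4 was the higher in 3 of 4 libraries, at 43.2, 48.2, 52.8 and 86.9 in untreated replicates 1 to 4. In untreated cells Mta2 lay above Hdac1 in every library without overlap, whereas in Romidepsin cells Hdac1, at 34.2 ± 7.42, and Mta2 overlapped and each was the higher in 2 of 4 libraries. Hdac1 was at 17.6 ± 1.51 in untreated cells. Hdac3 stood next below Mta2 on average in Romidepsin cells, at 24.7 ± 5.87. They overlapped there, and Mta2 was the higher in 2 of 4 libraries. The mean of Hdac3 was the lowest but for Hdac8 in untreated cells, at 13.02 ± 1.57, although Sin3a exceeded it in only 1 of 4 libraries. Below Hdac1 in untreated cells, Ncor1, Hdac2, Rcor1, Sin3a and Hdac3 lay between 16.9 and 13.02 on average, and each overlapped its neighbour in the order. Hdac8 was last and clear of all others in both groups, at 1.41 ± 0.634 in Romidepsin cells and 2.31 ± 0.358 in untreated cells.

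Several of these subunits have a paralog that can take the same place in a complex, and the ratio of both counts within a library does not depend on library scaling. The balance between the NuRD ATPases Chd4 and Chd3 differed most of the 5 ratios described. The log2 ratio of Chd4 over Chd3 was 5.09, 4.80, 3.02 and 3.73 in Romidepsin replicates 1 to 4 and 1.83, 1.47, 1.67 and 1.72 in untreated replicates 1 to 4. All Romidepsin libraries lay above all untreated ones, and the difference of 2.49 had an exact permutation p of 0.0286, two-sided, the smallest that 4 against 4 libraries can give, and 0.0857 when adjusted over the 6 ratios computed, which misses 0.05. The log2 ratio of Mta2 over Mta1 was 0.99 ± 0.31 in Romidepsin cells and 1.64 ± 0.15 in untreated cells (SD, n = 4 each). It too had no overlap, with the same exact p values. Hdac1 over Hdac2 was 0.39 ± 0.24 in Romidepsin cells and −0.04 ± 0.22 in untreated cells, with overlapping groups (exact permutation p = 0.0857, n = 4 each). Sin3a over Sin3b was −0.07 ± 0.26 in Romidepsin cells and −0.67 ± 0.48 in untreated cells (exact permutation p = 0.0857). The ratio of Rcor1 over Rcor3 differed by 0.32 (exact permutation p = 0.400). With libraries paired by number, 4 pairs cannot give an exact p below 0.125.

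**Figure D4:**
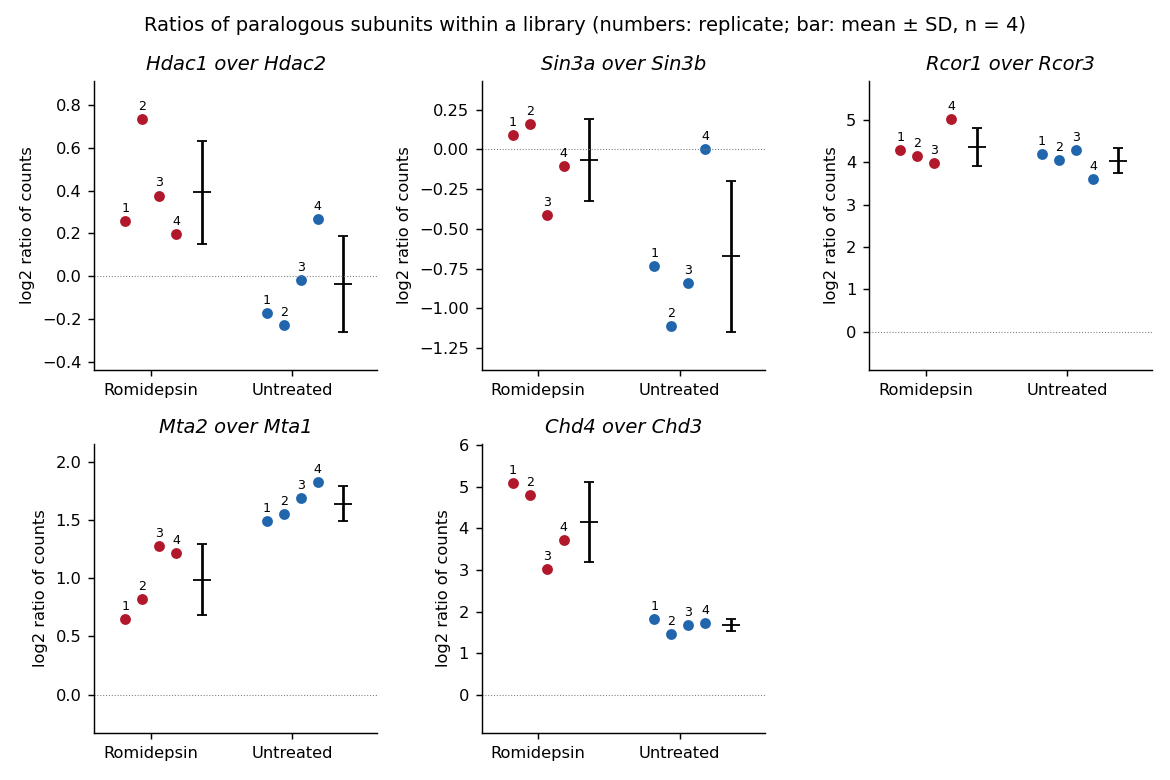
Log2 ratio of the counts of 5 pairs of paralogous subunits in each library, with Romidepsin libraries on the left and untreated ones on the right of each panel, labelled by replicate number, and the mean ± SD (n = 4 each). Mta2 over Mta1 and Chd4 over Chd3 show no overlap between the groups.

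The other genes of these complexes were taken from 8 lists holding 104 genes of the count table. The lists were chosen with earlier results of these data known. Their counts beside those of all genes are therefore a description and not an independent test. Of 101 tested, 10 were higher and 38 lower, and their median log2 fold change was −0.23, beside 0.01 over all tested genes, of which 20.3% were higher and 16.2% lower. Without Romidepsin replicate 3, 16 were higher and 42 lower, against 24.8% and 23.4% of all genes. With library size scaling 23 were higher and 28 lower, against 30.2% and 10.7% of all genes. With housekeeping scaling, which moves all genes upward together, 30 were higher and 12 lower, against 38.5% and 5.6% of all genes. These pooled counts mix subunits with genes outside the complexes. In the unpaired fit, recruiting factors, cohesin genes and the list of kinases, phosphatases and inositol enzymes gave 12, 6 and 2 of the 38 lower genes. They gave 2, 1 and 2 of the 10 higher ones. The medians of the lists ranged from −0.64 (NCoR) to 0.14 (SIN3).

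In NuRD, 6 of 13 tested partners fell and 0 rose by edgeR, where 16.2% of all tested genes fell and 20.3% rose. At an unadjusted p under 0.05, 2 were higher (Rbbp4 and Chd5), and DESeq2 called 1 higher and limma-voom 0. Chd3, the alternative ATPase, was at 16.2, 23.6, 66.5 and 50.6 CPM in Romidepsin replicates 1 to 4, against 97.4, 140, 133 and 211 CPM in untreated replicates 1 to 4. Every Romidepsin library lay below every untreated one, and Chd3 fell by 1.89 on the log2 scale (SE 0.44, n = 4 each; edgeR adjusted p = 0.0121). Mbd3, the methyl-CpG-binding-domain protein that defines one form of NuRD, averaged 23.3 ± 9.52 CPM in Romidepsin cells and 66.0 ± 8.77 CPM in untreated cells (SD, n = 4 each; log2 fold change −1.50 ± 0.27, edgeR adjusted p = 0.00468). Zmynd8, a chromatin reader that binds NuRD, averaged 44.0 ± 33.7 and 188 ± 32.1 CPM and fell by 2.10, and Mta3, Cdk2ap1 and Mbd2 fell by 1.56, 1.44 and 0.73. Mbd2 was called in 11 of 20 alternatives and Cdk2ap1 in 12 of 19. The histone-binding chaperone Rbbp4, shared with the SIN3 complex, was at 0.52 ± 0.19 and did not pass (edgeR adjusted p = 0.0601), and Mta1 was at −0.03 ± 0.13. Without Romidepsin replicate 3, 3 NuRD partners rose, where 24.8% of all tested genes were higher. With housekeeping scaling 4 rose and 4 fell, against 38.5% and 5.6% of all tested genes.

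Of 19 SIN3 partners tested, 4 rose, 4 fell and 11 did not pass (median 0.14). These shares lie near the 20.3% higher and 16.2% lower of all tested genes. The number that fell was 2 without Romidepsin replicate 1, Romidepsin replicate 2 or untreated replicate 2, and 6 rose without Romidepsin replicate 3. Lower calls over all tested genes went from 2080 to 1232, 1323 and 1462 without the first 3 of these libraries. Higher calls over all tested genes went from 2610 to 3270 without Romidepsin replicate 3. Ing1, whose PHD finger reads methylated histone H3, was at 74.2, 74.1, 50.8 and 74.1 CPM in Romidepsin replicates 1 to 4, against 41.9, 41.6, 41.8 and 38.9 CPM in untreated replicates 1 to 4. The groups did not overlap, and Ing1 rose by 0.74 ± 0.16. Arid4b and Ing2 rose by 0.64 and 0.58 (Ing2 did not pass with the replicate block, adjusted p = 0.0635, and was called in 10 of 20 alternatives), as did the barely detected Brms1, at 0.817 ± 0.103 CPM in Romidepsin cells and 0.243 ± 0.063 CPM in untreated cells. Brms1 shares 1383 exon bases with AC124502.3 on the same strand, a gene not analysed here, so its count is uncertain. Ogt, which encodes the O-GlcNAc transferase, averaged 103 ± 36.8 CPM in Romidepsin cells and 239 ± 45.6 CPM in untreated cells and fell by 1.21 (SE 0.26, n = 4 each; edgeR adjusted p = 0.00921). Morf4l1, Sap30 and Phf12 fell by 0.80, 0.78 and 0.50, with the call held in 19, 14 and 13 of 20 alternatives. With housekeeping scaling 9 SIN3 partners rose and 0 fell, against 38.5% and 5.6% of all tested genes.

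Among 12 CoREST partners, 5 fell, 1 rose and 6 did not pass (median −0.39), where 16.2% of all tested genes fell and 20.3% rose. Ctbp1, a corepressor that binds short peptide motifs of repressors, was at 81.5, 72.3, 107 and 93.7 CPM in Romidepsin replicates 1 to 4, against 199, 190, 178 and 182 CPM in untreated replicates 1 to 4. It fell by 1.08 without overlap (SE 0.16, n = 4 each; edgeR adjusted p = 0.00245). Its relative Ctbp2 fell by 1.28, Phf21a, a reader of unmethylated histone H3, by 1.47, Gse1 by 1.07 and Zmym3 by 0.71. Rcor2, a paralog of Rcor1, rose from a low level, averaging 6.64 ± 1.66 CPM in Romidepsin cells and 1.78 ± 0.549 CPM in untreated cells (log2 fold change 1.89 ± 0.33, edgeR adjusted p = 0.00414). Kdm1a, the demethylase LSD1 itself, was at 0.01 ± 0.15. Gse1 shares 2758 exon bases with Gins2 on the opposite strand and Ctbp2 314 with Fgfr2 on the same strand, so their reads may be mixed. With housekeeping scaling 2 CoREST partners rose and 1 fell, against 38.5% and 5.6% of all tested genes.

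Of 5 NCoR partners, Tbl1xr1, a WD40 subunit of the complex, and Kdm4a, a histone demethylase, fell (−1.30 ± 0.25 and −0.93 ± 0.16; edgeR adjusted p = 0.00601 and 0.00393), and 3 did not pass. Of these 3, Tbl1x was at −0.64 (adjusted p = 0.0733) but was called lower once libraries were blocked by number (−0.68, adjusted p = 0.0268). Tbl1xr1 averaged 60.5 ± 22.9 CPM in Romidepsin cells and 149 ± 15.2 CPM in untreated cells. Cops2, which encodes a COP9 signalosome subunit, was at 0.12 ± 0.13. Of the 3 MiDAC genes, Trerf1 fell (−1.81 ± 0.40) and the scaffold gene Elmsan1, also called Mideas, was at −0.45 ± 0.22. Beside both lists, 16.2% of all tested genes were lower and 20.3% higher.

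Proteins that bring these complexes to DNA formed the longest list. Beside 16.2% of all tested genes lower and 20.3% higher, 12 of 27 tested on this list fell while 2 rose (median −0.52). Only 6 fell without Romidepsin replicate 1, without Romidepsin replicate 4 or without untreated replicate 3, 7 without Romidepsin replicate 2, and without untreated replicate 3 the number that rose was 0. Lower calls over all tested genes dropped too, from 2080 to 1232, 1187, 1275 and 1323 in these fits, in that order. Higher calls over all tested genes went from 2610 to 1794 without untreated replicate 3. With the replicate block E2f6 was higher (0.73, adjusted p = 0.0327; 0.0572 unpaired) and Nr1d2 lower (−0.65, adjusted p = 0.0254; 0.0854 unpaired). Gfi1, a zinc finger repressor that acts in granulocyte development, averaged 1.29 ± 0.902 CPM in Romidepsin cells and 9.97 ± 5.64 CPM in untreated cells. Gfi1 fell by 2.94, with Romidepsin replicate 3 at 2.64 CPM and the other Romidepsin libraries at 0.744 to 0.904 CPM. Cbfa2t3, an ETO-family corepressor, fell by 1.86. Rb1, the retinoblastoma protein gene, rose by 0.87 ± 0.22 (edgeR adjusted p = 0.0158), although it overlaps Lpar6 and Rcbtb2 on the opposite strand. Without untreated replicate 3, Rb1 did not pass (adjusted p = 0.0525). The summed neutrophil and monocyte markers of these libraries are given above, and their part in these values was not tested. With housekeeping scaling 7 recruiting factors rose and 4 fell, against 38.5% and 5.6% of all tested genes.

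Of 11 genes for kinases, phosphatases and inositol phosphate enzymes listed as partners of class I HDACs, 2 rose, 2 fell and 7 did not pass. These shares lie near the 20.3% higher and 16.2% lower of all tested genes. Without Romidepsin replicate 1 or 4, 1 rose and 1 fell. Over all tested genes, higher calls went from 2610 to 1793 and 1934 in these fits, and lower calls from 2080 to 1232 and 1187. With the replicate block the inositol kinase gene Itpkb was lower too (−0.91, adjusted p = 0.0169; 0.152 unpaired). Prkaca, a catalytic subunit of protein kinase A, which phosphorylates HDAC8, rose by 1.12 ± 0.20 (edgeR adjusted p = 0.00421), averaging 178 ± 43.8 CPM in Romidepsin cells and 81.8 ± 4.57 CPM in untreated cells. The phosphatase genes Ppp4c and Ppp1ca fell by 0.80 and 0.53, and Ppp1ca, called in 13 of 20 alternatives, was at 0.17 under housekeeping scaling. In cohesin, 6 of 13 fell and 1 rose (median −0.55), where 16.2% of all tested genes fell and 20.3% rose. Smc3, whose acetylated protein is the substrate of HDAC8, was at 160.2, 179, 73.2 and 131 CPM in Romidepsin replicates 1 to 4, against 72.9, 58.0, 53.7 and 72.6 CPM in untreated replicates 1 to 4. Romidepsin replicate 3 lay just above the highest untreated library, and Smc3 rose by 1.08 ± 0.27 (SE, n = 4 each; edgeR adjusted p = 0.0148). The alternative cohesin subunits Stag2 and Stag1 fell by 1.48 and 1.11. With housekeeping scaling 1 cohesin gene rose and 1 fell, against 38.5% and 5.6% of all tested genes.

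**Figure D5:**
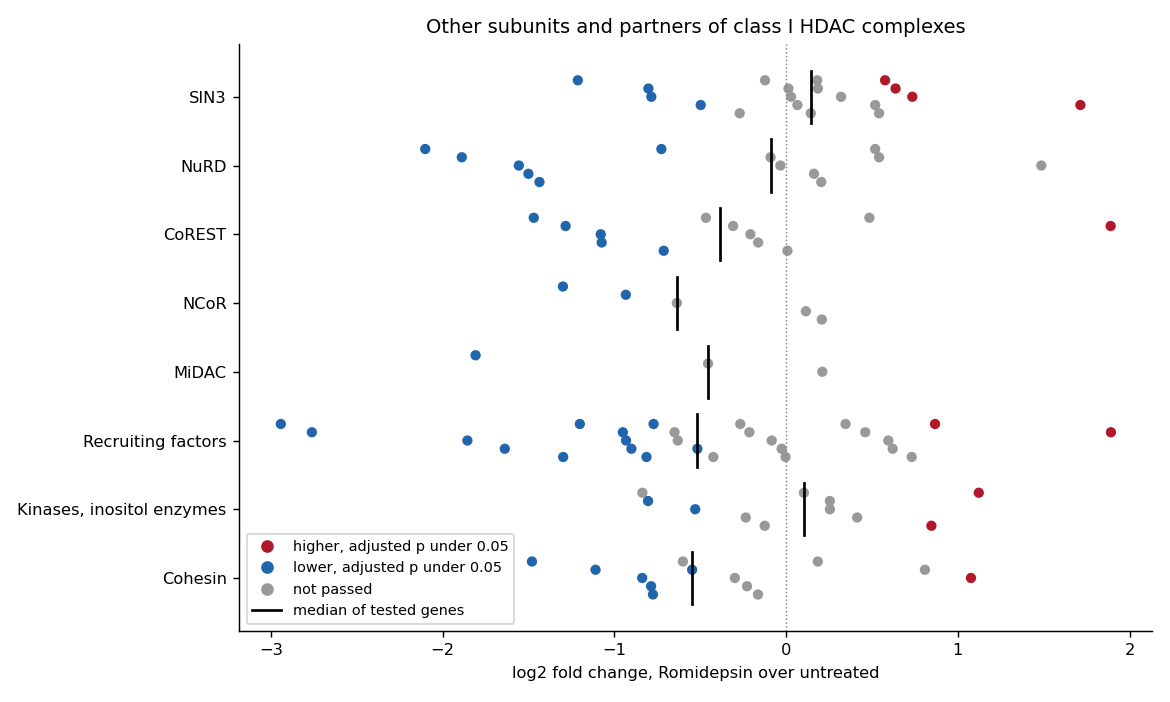
Log2 fold change, Romidepsin over untreated, of the tested genes of 8 lists of partners of class I HDACs, with red for higher and blue for lower at an adjusted p under 0.05, grey for genes that did not pass, and a black bar for the median of each list. NuRD has 6 lower genes and no higher one, and SIN3 has 4 of each. Of all tested genes, 16.2% were lower and 20.3% higher.

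Promoter sequences were at hand for 7 of the 9 genes, from RefSeq on GRCm38.p6. They are shown for Mta2, which fell, and for Chd4 and Hdac2, which did not pass, so that the start regions of a called and of uncalled members stand beside each other. Only bases upstream of the annotated exons are given, 5′ to 3′ on the plus strand, at chr19:8941670-8941874 (Mta2), chr6:125095731-125095980 (Chd4) and chr10:36974294-36974543 (Hdac2). Capitals mark the GC box GGGCGG and its reverse complement CCGCCC, and the motif CCAAT was searched on both strands as well.
Mta2: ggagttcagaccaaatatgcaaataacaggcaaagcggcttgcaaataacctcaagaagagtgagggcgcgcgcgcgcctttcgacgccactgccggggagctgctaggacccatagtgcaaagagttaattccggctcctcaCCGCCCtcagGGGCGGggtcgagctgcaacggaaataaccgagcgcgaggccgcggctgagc
Chd4: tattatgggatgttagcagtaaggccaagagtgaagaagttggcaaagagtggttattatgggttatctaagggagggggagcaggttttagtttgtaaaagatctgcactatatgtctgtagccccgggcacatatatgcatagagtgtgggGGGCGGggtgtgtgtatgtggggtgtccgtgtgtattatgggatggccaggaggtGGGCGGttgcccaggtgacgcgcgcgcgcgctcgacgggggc
Hdac2: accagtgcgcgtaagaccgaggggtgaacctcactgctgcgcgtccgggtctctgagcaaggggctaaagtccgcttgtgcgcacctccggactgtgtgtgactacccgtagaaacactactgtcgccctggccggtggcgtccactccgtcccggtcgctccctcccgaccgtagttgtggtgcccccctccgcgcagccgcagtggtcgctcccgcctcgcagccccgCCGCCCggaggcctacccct
Mta2 and Chd4 each hold 2 GC boxes and Hdac2 holds 1, and CCAAT was found in 0 of the 3. A second start window of Chd4, not printed, holds 3 GC boxes, 1 CCAAT and 23 CpG dinucleotides in its 250 upstream bases. Of all 32851 promoter windows, 32.7% hold a GC box and 33.8% a CCAAT within the 250 bases before the start site. The 3 stretches hold 19, 12 and 27 CpG dinucleotides, where the median window of 250 bases holds 6. A match is a description of the letters only, and no match bears on any factor.

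Genes whose profile over the 8 libraries was most like that of a member were found by the root mean square difference of log2 CPM, each gene centred on its own mean, among 8793 other named genes (8794 for Hdac8) whose mean reached 10 CPM. All genes are compared over the same 8 libraries and so share their depths and groups, and the distances are a description with no test. Nearest to Hdac1 were Terf2ip, Mms19 and Orc4 (0.09, 0.10 and 0.10 log2 units), and nearest to Hdac3 was Urod (0.07). Mta2 was nearest to Spg21, Mia2 and Tprgl (all 0.08). Sin3a lay 0.04 from Vps50, the smallest distance found for any of the 9 genes. Hdac8 was nearest to Sbds (0.13), and the third nearest was Mbd2 of NuRD (0.15).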

How the data were processed

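Raw counts, whole-number reads per Ensembl gene and library, were deposited by the authors. The submitters' processing notes name STAR 2.5.2a, FastQC, DESeq2 and the build GRCm38 (mm10). A NEBNext poly(A) module and an Illumina sequencer were used, per the labels' protocols. The counting tool was not given in the sources used here, nor were annotation and strand setting, so reads of overlapping genes and copies may be assigned to either gene. Of 26930 identifiers, 26881 matched a symbol.

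Counts were analysed with edgeR 4.0.16 in R 4.3.3: filterByExpr (12852 genes), TMM, its quasi-likelihood F test (robust, two-sided) and Benjamini-Hochberg adjustment over all tested genes at 0.05. The test was checked on simulated counts in which few genes changed and no library stood apart from its group. That check therefore does not cover data with as many called genes as here. DESeq2 1.42.0 and limma-voom (limma 3.58.1) were alternatives. Copies were searched with BLAST 2.17.0 (at least 90% identity over 75 bases), and exact permutation tests used scipy 1.17.1. The 9 genes and all lists were chosen with earlier results of these data known. In each list, up to 2 called genes in the majority direction, 1 in the other and 1 uncalled gene were to be named, beside the paralogs, and further names were chosen after their values were seen. A gene of these lists is not reported here and is left out of the counts. P-values of the paralog ratios were adjusted over all 6 ratios of the design.

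Replicate numbers are shared between groups. Deviations from the group mean correlated at 0.525, 0.270, 0.457 and 0.171 for same-numbered libraries 1 to 4, and at most 0.0467 between numbers. The same-number values exceed the bound of 0.1, which is taken to mean that the numbers pair the libraries, from the data and not from a label. Fits and tests are unpaired unless the replicate block is named.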

Additional observations from a re-analysis of the deposited data

Results flagged for a closer look

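Within groups of 4 libraries, a value was picked out when its gap to the nearest other library was, as a share of the whole range, above Dixon's critical value for 4 values. Of 92 groups examined, 6 held such a value, where chance gives about 1 in 20. Untreated replicate 4 was the library in 4 of the 6. It held 319 CPM of Ncor1 (others 176 to 194), 98.2 CPM of Sin3a (60.8 to 67.2), 9.27 CPM of Rcor3 (3.46 to 3.75), and a low 87.7 CPM of Csnk2b (128 to 135). In this library levels rose with transcript length, from −0.50 in the shortest class to 0.48 in the longest. The part of this trend in the single values was not tested. The other values were 68.4 CPM of Hdac1 in untreated replicate 1 (57.6 to 58.3 in the other untreated libraries) and 2.64 CPM of Gfi1 in Romidepsin replicate 3 (0.744 to 0.904).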

How the results depend on the processing

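Romidepsin over untreated, Hdac1 and Hdac3 kept their direction and call in all 20 alternatives. Library size alone gave 4 higher and 0 lower members, 1369 lower genes among all tested and 23 higher partner genes. Housekeeping scaling gave 5 higher and 0 lower members, 4951 higher and 720 lower genes among all tested, and 30 higher and 12 lower partner genes. With library size, Hdac2 was at 0.80 and Sin3a at 0.80, both then called, Mta2 at −0.39, not called, and Rcor1 at 0.20. Housekeeping scaling gave 1.26 for Hdac2, 1.20 for Sin3a and 1.05 for Chd4, all called, −0.0146 for Mta2, 0.21 for Ncor1 and 0.55 for Rcor1. Signs of uncalled partners turned with library size (Mau2 0.056, Mta1 0.27, Sin3b 0.18, Ski 0.27), upper-quartile scaling (Mta1 0.033, Ski 0.049) and limma-voom (Ski 0.0038). Uncalled partners changed sign with housekeeping scaling too (Elmsan1 0.21, Mau2 0.43, Mta1 0.69, Rcor3 0.14, Sin3b 0.61, Ski 0.64, Zfp217 0.33). Ppp1ca, called lower in the unpaired fit and in 13 of 20 alternatives, was at 0.17 with housekeeping scaling. The cause was not tested.

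With the replicate block, 2 members were lower, Hdac8 being at −0.79. It was at −0.79 with the block and length correction together, where 2 members were again lower, and at −0.97 without both libraries of number 3, with 2 lower. The block changed no other call of a member, and gave 10 higher and 41 lower partners, against 21.2% and 20.8% of all tested genes.

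Leaving out 1 library at a time gave 2 to 4 higher and 1 to 2 lower members, 1793 to 3270 higher and 1187 to 3077 lower genes among all tested, and 6 to 16 higher and 25 to 42 lower partners. The fewest higher partners were called without untreated replicate 3 and the fewest lower ones without Romidepsin replicate 1. Lower genes numbered 1232, 1323, 1187 and 1275 without Romidepsin replicates 1, 2 and 4 and untreated replicate 3. Log2 fold changes ranged from 0.38 to 0.60 for Hdac2, −1.08 to −0.51 for Hdac8, 0.39 to 0.65 for Sin3a, −0.51 to −0.17 for Ncor1, −0.24 to 0.12 for Rcor1 and 0.25 to 0.64 for Chd4. Those of Csnk2b (−0.036 to 0.15), Mta1 (−0.089 to 0.011), Rcor3 (−0.62 to 0.0088) and Ski (−0.11 to 0.10) changed sign.

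With the longest transcript as gene length, the share of Hdac1 among class I HDACs was 49.6% in Romidepsin and 43.4% in untreated cells, that of Hdac3 23.8% and 21.5%, and that of Hdac8 7.18% in untreated cells. Hdac8 rests on the fewest counts of the members, 62 to 190 per library.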
